A study of Mus musculus with 14 samples.

Results

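Nascent neurons of the mouse spiral ganglion were taken as the cells from embryonic day 14 (E14) that carried RNA of Mfap4, Ppp1r17 and Ppp1r14a. In each cell the UMIs (unique molecular identifiers, each standing for 1 captured RNA molecule) of these 3 genes were added and scaled to 10000 UMIs of the cell. This sum is called the gate value here. A value of at least 10 placed a cell in the gate-positive class, which held 379 of the 1637 E14 cells and of 5441 cells in the whole data set. The comparison class was the 885 E14 cells with a gate value of 0 (gate-zero cells), and the 373 cells in between form an intermediate class. The cells were thus chosen by the measured values of the 3 gate genes, so the 3 gate genes are described without a test. The 3 genes were themselves chosen with clusters of these cells known, so the tests of other genes say what goes with the gate and are not independent evidence that a separate cell type exists.

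The spiral ganglion holds the afferent neurons that carry signals from the hair cells of the cochlea to the brainstem. These neurons arise from Neurog1-expressing precursors of the otic epithelium, which leave the epithelium as neuroblasts, divide, and then stop dividing and send out axons. Neurod1, a basic helix-loop-helix (bHLH) transcription factor downstream of Neurog1, is needed for their survival and differentiation, and Nhlh1 is a related factor that is expressed briefly in newly formed neurons. In the mouse cochlea most ganglion neurons leave the cell cycle before E14, earlier in the base than in the apex. Differentiating neurons then take up neurofilaments and the channels and receptors of a mature afferent.

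All groups came from CD1 mice, with no treatment or engineered allele given in the labels. The E14 group consisted of 3 libraries of whole ganglia, each pooling embryos (5 per sample, per the study's design text) from separate litters, dissociated with trypsin. The later groups were 3 apical and 3 basal libraries at E16 (trypsin), 3 libraries at E18 and 2 at postnatal day 1 (P1), both dissociated with papain, so enzyme and age cannot be told apart there. Ganglia were dissected with remnants of sensory epithelium and mesenchyme, passed through a fine strainer, and run as 10x droplet libraries that count the 3′ ends of transcripts. The labels call the cells spiral ganglion neurons, and a pooled library is the replicate throughout. The E14 libraries held 524, 379 and 734 cells with median depths of 4985.5, 5221 and 4762 UMIs per cell, and shared 0 cell barcodes.

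The gate genes and the bHLH genes that accompany them are placed as follows in mm10 (GRCm38), all annotated as protein coding. Mfap4, which encodes a glycoprotein of extracellular microfibrils, lies on chromosome 11 from 61485431 to 61488900. Ppp1r17, which encodes a phosphatase inhibitor known from cerebellar Purkinje cells, lies on chromosome 6 from 56017497 to 56032689. Ppp1r14a, which encodes CPI-17, an inhibitor of myosin phosphatase, lies on chromosome 7 from 29289308 to 29293801. Neurod1 lies on chromosome 2 from 79452521 to 79456751, and Nhlh1 on chromosome 1 from 172052292 to 172057573. NEUROD1 and NHLH1 proteins bind E-boxes, the 6-base motif CANNTG (N is any base), and members of the NEUROD family prefer CAGATG.

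The stretch just before the start site is shown for Neurod1, Nhlh1, Neurod2 and Ppp1r14a, because E-boxes are the motif bound by the bHLH factors that the first 3 encode; Ppp1r14a is the gate gene with a window, and its link to the gate is fixed by the rule. The windows are from RefSeq (GRCm38.p6), on the gene's strand, and lie before both the RefSeq and the GENCODE start; capitals mark every CANNTG, read on both strands because the motif is its own reverse complement. They are chr2:79456752-79456886 (minus strand) for Neurod1, chr1:172057597-172057846 (minus) for Nhlh1, chr11:98329649-98329895 (minus) for Neurod2 and chr7:29289070-29289307 (plus) for Ppp1r14a.
Neurod1: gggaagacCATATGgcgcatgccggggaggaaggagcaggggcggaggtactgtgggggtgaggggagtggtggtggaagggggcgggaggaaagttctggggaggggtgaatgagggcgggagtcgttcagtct
Nhlh1: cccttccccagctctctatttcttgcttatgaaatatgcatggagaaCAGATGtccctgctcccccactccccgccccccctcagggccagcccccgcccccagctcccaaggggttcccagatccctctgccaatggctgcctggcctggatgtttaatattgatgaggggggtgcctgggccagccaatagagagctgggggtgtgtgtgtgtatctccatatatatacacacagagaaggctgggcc
Neurod2: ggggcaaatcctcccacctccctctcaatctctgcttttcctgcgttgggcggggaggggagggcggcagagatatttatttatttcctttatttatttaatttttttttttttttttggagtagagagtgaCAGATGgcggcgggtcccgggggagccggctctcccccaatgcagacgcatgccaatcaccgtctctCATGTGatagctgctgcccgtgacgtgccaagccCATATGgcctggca
Ppp1r14a: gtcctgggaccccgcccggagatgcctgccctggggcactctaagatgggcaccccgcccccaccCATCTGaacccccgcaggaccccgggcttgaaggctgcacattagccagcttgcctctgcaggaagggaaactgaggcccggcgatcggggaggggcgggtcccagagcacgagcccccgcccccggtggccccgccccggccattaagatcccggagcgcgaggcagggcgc
The Neurod1 window of 135 bases holds 1 CANNTG, and the Nhlh1 window of 250 bases holds 1, which is CAGATG. The Neurod2 window of 247 bases holds 3, of which 1 is CAGATG, and the Ppp1r14a window of 238 bases holds 1, CAGATG read on the other strand. Of 32851 RefSeq windows of 250 bases, 66.2% hold a CANNTG and 14.4% a CAGATG, so a match is common and is given here as a description of the sequence only.

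Gate-positive cells were found in all 3 E14 libraries at different shares. They made up 15.6% of cells in library 1 (82 of 524, exact 95% binomial interval 12.6 to 19.0), 35.6% in library 2 (135 of 379, 30.8 to 40.7) and 22.1% in library 3 (162 of 734, 19.1 to 25.2). Library 2 lay above both others beyond counting error. The mean of 24.4% moved to 31.8% with a gate of 5, to 16.5% with a gate of 20, and to 8.91% among cells of at least 5000 UMIs (4.62%, 16.7% and 5.45% by library). At E16 only 5 of 2478 cells passed, 2 in 1 basal library and 3 in 2 apical ones, and at E18 and P1 it was 0 of 862 and 0 of 464. The largest share in any library after E14 was 0.851%, and a count of 0 allowed shares of up to 0.796% to 1.85% in the libraries of E18 and P1 when 3 cells are taken as the limit. The exact 95% binomial intervals of these libraries reached 0.974% to 2.25%. These intervals cover counting error only. The fall with age was part of why the genes were chosen, so it is given without a test.

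**Figure D1:**
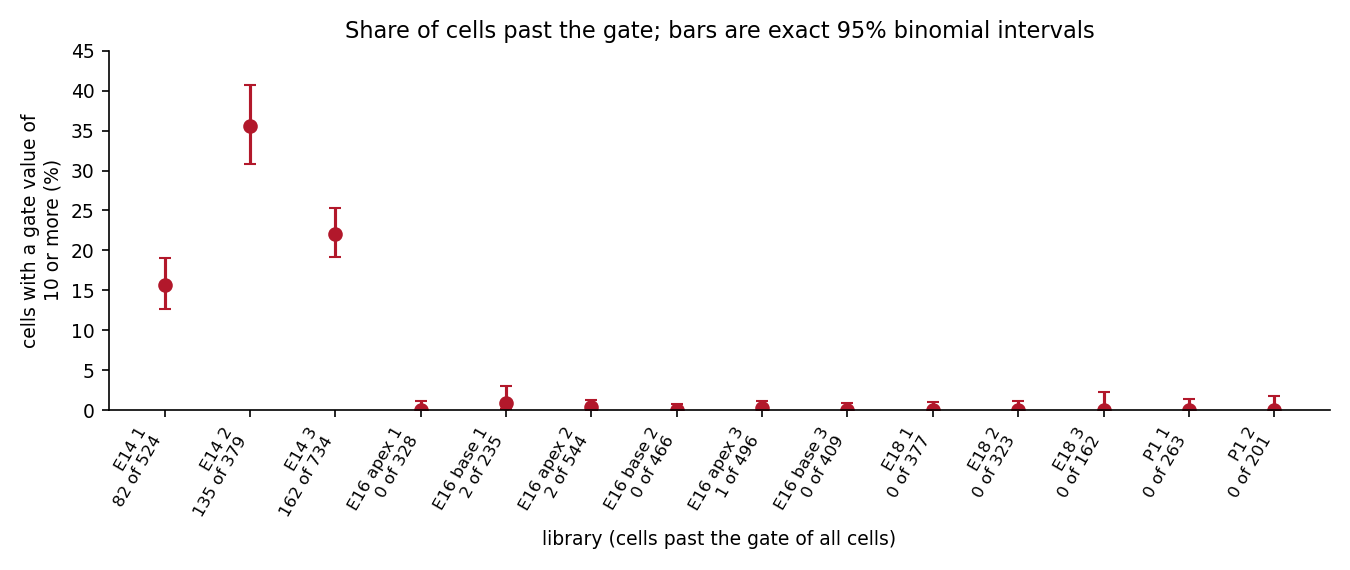
Percentage of cells with a gate value of at least 10 (vertical axis) in each of the 14 libraries (horizontal axis, with the number of such cells of all cells); points are shares and bars exact 95% binomial intervals. The 3 E14 libraries lie between 15.6% and 35.6%, and every later library is at or below 0.851%.

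Within the class, most cells carried all 3 gate RNAs. Of the 379 cells, 302 (79.7%) had UMIs of all 3 genes, 73 had 2 of them and 4 had 1. Mfap4 was detected in 353, Ppp1r17 in 341 and Ppp1r14a in 362. The gate value ran from 10.0 to 91.4 with a median of 26.9, and it rested on 2 to 33 UMIs per cell with a median of 10. The threshold cut through a continuous range, with 25 cells between 10 and 12 just inside and 34 cells between 8 and 10 just outside, the nearest at 9.99. In the intermediate class the median was 2 gate UMIs, and 186 of its 373 cells had 1.

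Levels below are CPM, the UMIs of a gene per 1000000 UMIs, summed over the cells of a class in a library. In such sums, fewer cells with a transcript and less of it per cell cannot be told apart. Mfap4 stood at 910, 977 and 886 CPM in the gate-positive sums of the 3 libraries. Ppp1r17 stood at 843, 819 and 808 CPM, and Ppp1r14a at 987, 1114 and 975 CPM. The 3 libraries were close to each other for each gene. The rule set a lower limit on the sum of these genes in every such cell, so this closeness is a description only. In the intermediate class the means were 97.1 ± 35.4 CPM (SD, n = 3) for Mfap4, 75.8 ± 14.5 for Ppp1r17 and 182 ± 22.2 for Ppp1r14a, and the gate-zero class is at 0 by construction.

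Gate-positive cells were shallower than gate-zero cells in every library. Their median depths were 3487, 4309 and 3652 UMIs, against 5227, 5583.5 and 5235.5 in gate-zero cells. With every cell thinned to 3000 UMIs the median number of genes per cell was 1711.5, 1709.5 and 1705, against 1769, 1757 and 1753.5. Thinning left out 18, 9 and 35 gate-positive cells and 6, 3 and 10 gate-zero cells. Fits on thinned cells and on gate-zero cells matched in depth are given beside the main fit. The match was incomplete, since at equal cell numbers the matched gate-zero sums held 351629, 754077 and 689514 UMIs. The gate-positive sums held 313121, 606658 and 602860, so the matched fit does not remove the difference in depth.

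Across 8273 genes tested in the 6 sums of E14, 1449 were higher (17.5%) and 1386 lower (16.8%) in gate-positive cells (edgeR quasi-likelihood test with the library as a block, Benjamini-Hochberg adjusted p under 0.05). The median log2 difference over all tested genes was 0.00. The fit found no gene-to-gene variation in the residual spread beyond sampling, with 2 residual degrees of freedom, so its p-values are very small and the text gives sizes and standard errors (SE). Without library 3 the count of lower genes was 912, with DESeq2 678 genes were higher and 589 lower, and with cells of at least 5000 UMIs alone 454 and 368. With gate-zero cells matched in depth as far as possible, 1078 genes were higher and 1091 lower. With cells thinned to 3000 UMIs it was 993 and 930.

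Both marker genes that the gate did not use were far higher in gate-positive cells. Neurod1 stood at 1182, 1601 and 1123 CPM, against 41.9, 83.5 and 53.2 CPM in gate-zero cells, a log2 difference of 4.57 (SE 0.09). Nhlh1 stood at 249, 315 and 345 CPM against 8.97, 14.1 and 16.4 CPM, a log2 difference of 4.60 (SE 0.16). The classes did not overlap for either gene, and the intermediate class lay between them at 317 CPM for Neurod1 and 66.5 CPM for Nhlh1. Such a lack of overlap was common, at 16.7% of all tested genes as higher and 24.8% as lower. In cells thinned to 3000 UMIs, Neurod1 was detected in 95.3%, 99.2% and 92.9% of gate-positive cells and in 9.38%, 22.4% and 12.8% of gate-zero cells (unthinned 95.1%, 99.3% and 96.3%, against 16.1%, 30.8% and 17.9%). Nhlh1 was detected in 54.7%, 63.5% and 59.1% of thinned gate-positive cells against 3.23%, 4.90% and 4.19% (unthinned 59.8%, 72.6% and 67.9%, against 4.61%, 6.16% and 7.65%).

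**Figure D2:**
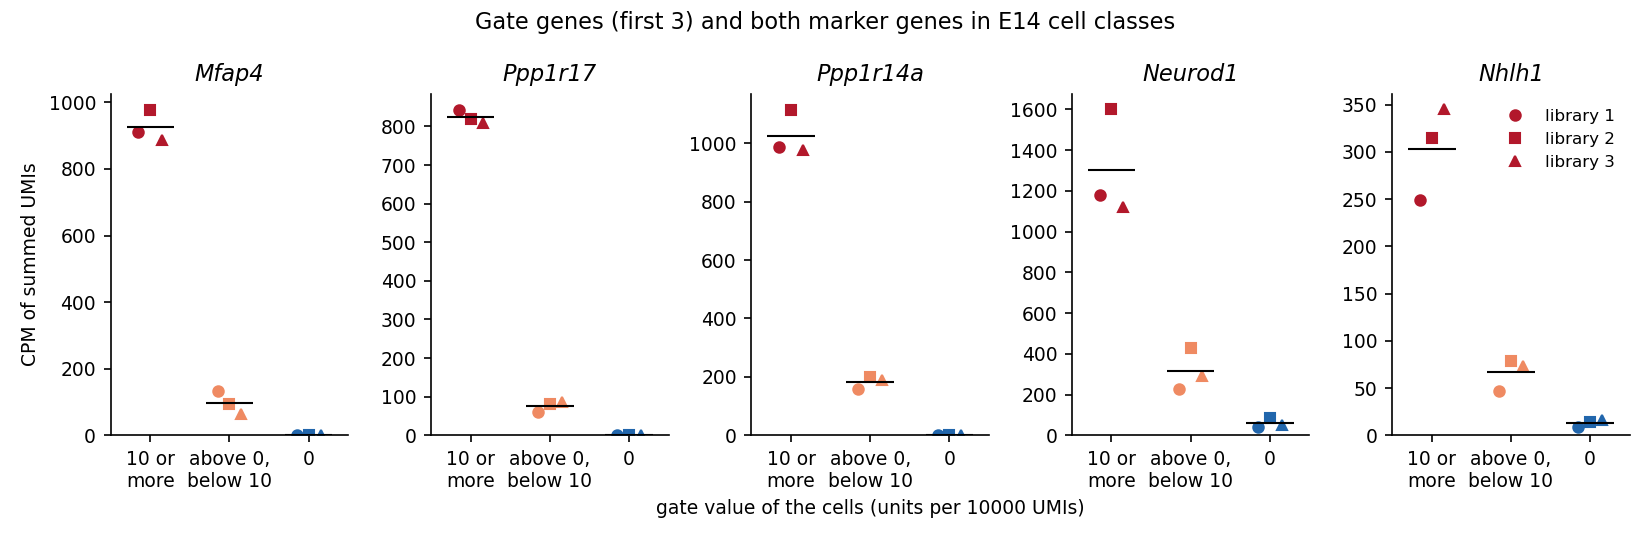
CPM of summed UMIs (vertical axis, linear from 0) for the 3 gate genes, Neurod1 and Nhlh1 in E14 cells of 3 classes of the gate value (horizontal axis); each symbol is a library and the line the mean. For Neurod1 the 3 gate-positive sums lie at 1123 CPM or more and the gate-zero sums at 83.5 CPM or less, and the gate genes are shown as a description.

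Most tested transcription factors of neurogenesis were higher. Of 21 listed genes 18 were tested, 15 were higher (83.3%) and 3 lower (16.7%), against 17.5% and 16.8% over all tested genes. The median log2 difference was 1.75. Some of the tested genes, such as Neurod2 and Neurod6, were near 0 in gate-zero cells and reached a testable level through the gate-positive class. The count is therefore no support for a change of the list. Neurod2 and Neurod6, relatives of Neurod1 that act in differentiating neurons, were among the highest. Neurod2 stood at 92.6, 120 and 113 CPM against 0.997, 1.18 and 0.454 CPM, a log2 difference of 6.96 (SE 0.36). Neurod6 stood at 121, 135 and 255 CPM against 2.49, 3.53 and 7.27 CPM, a log2 difference of 5.31 (SE 0.23). Both genes separated the classes in every library.

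The zinc-finger factor Insm1, which acts in the step from progenitor to neuron, was higher by 2.78 (SE 0.12) on the log2 scale, at 447, 440 and 318 CPM against 63.8, 70.6 and 51.4 CPM. Eya2, a transcriptional coactivator of otic neurogenesis, was higher by 4.36 (SE 0.33), St18 by 3.93 (SE 0.29), Ebf2 by 4.12 (SE 0.30), Nhlh2 by 2.05 (SE 0.12) and Hes6 by 1.45 (SE 0.12). Sox4 was lower by -0.98 (SE 0.08) and Eya1 by -0.33 (SE 0.13), as was Myt1l, while Sox11 was higher by 0.52 (SE 0.06). Neurog1, which marks the precursor step, was at 0 CPM in the gate-zero and intermediate classes. Among gate-positive cells it appeared in library 2 only, at 7.47 CPM in the cells with a gate value of 40 or more. That sum held 34 cells with a median depth of 3880 UMIs, so the value lies at the floor of detection and is not read as a result. Neurog1 and Sox2 were too low to be tested.

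Factors that pattern and maintain ganglion neurons moved in both directions. Of 13 tested genes (18 listed) 5 were higher (38.5%) and 7 lower (53.8%), against 17.5% and 16.8% over all tested genes. The median log2 difference was -0.88. Isl1, a LIM homeodomain factor of sensory neurons, stood at 2424, 2751 and 2609 CPM against 740, 713 and 741 CPM, a log2 difference of 1.91 (SE 0.06). Zeb2 was higher by 2.29 (SE 0.11) and Prox1 by 1.96 (SE 0.29), and Pou4f1, a sensory POU factor, by 0.55 (SE 0.10).

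Among the lower ones, Runx1, a factor of sensory neuron subtypes, stood at 9.58, 14.8 and 6.64 CPM against 134, 142 and 147 CPM, a log2 difference of -3.67 (SE 0.25), with no overlap of the classes. Gata3, which is needed for auditory neuron development, stood at 329, 295 and 307 CPM against 862, 771 and 841 CPM, a log2 difference of -1.33 (SE 0.08). Etv4 was lower by -2.89 (SE 0.20) and Meis2 by -1.62 (SE 0.27).

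Cell cycle genes were low in both classes. Of 21 listed genes 6 reached a testable level and 0 passed the threshold. The summed CPM of the list was 281, 199 and 186 in gate-positive cells and 238, 227 and 195 in gate-zero cells, so the classes overlapped. Hells, a chromatin remodeller of dividing cells, had a log2 difference of 0.66 (SE 0.31, edgeR adjusted p = 0.0868), and the cyclin gene Ccnd1 one of -0.56 (SE 0.25, edgeR adjusted p = 0.069). Ccnd1 passed as lower in 6 alternatives, for example at -1.04 (edgeR adjusted p = 0.00244) with depth-matched gate-zero cells, and was at 0.51 (edgeR adjusted p = 0.501) with cells of at least 5000 UMIs alone.

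Genes of cell cycle exit were mostly higher, with 5 of 7 higher (71.4%) and 1 lower (14.3%) and a median log2 difference of 0.81. The shares over all tested genes were 17.5% and 16.8%. Gadd45g, a growth arrest gene, stood at 390, 284 and 400 CPM against 48.4, 58.8 and 77.3 CPM, a log2 difference of 2.63 (SE 0.12). Btg2, an antiproliferative gene of newly committed neurons, stood at 284, 265 and 244 CPM against 42.4, 23.5 and 43.2 CPM, a log2 difference of 2.87 (SE 0.14). The cyclin-dependent kinase inhibitors Cdkn1c and Cdkn1a were higher by 0.81 (SE 0.08) and 1.44 (SE 0.19), and Cdkn2d was lower by -0.31 (SE 0.10). Cdkn1a missed the threshold with cells of at least 5000 UMIs alone (0.68, edgeR adjusted p = 0.27).

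Of the Notch pathway 5 of 17 listed genes were tested and 2 were higher, with a median of 0.57. Over all tested genes 17.5% were higher, and with 5 tested genes the count is not read as a result. Mfng, a glycosyltransferase that modifies Notch receptors, stood at 195, 193 and 156 CPM against 2.49, 3.53 and 3.18 CPM, a log2 difference of 5.93 (SE 0.25). Numbl was higher by 0.63 (SE 0.20, edgeR adjusted p = 0.00661) and lost its call under 5 alternatives, among them DESeq2 (adjusted p = 0.361), without library 1 (0.0555) and without library 3 (0.149). The ligands, the receptors and the Hes and Hey targets of the list were too low to be tested.

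Several contractile and actin-associated genes were higher. Of 16 listed genes 8 were tested, and of these 7 were higher (87.5%) and 0 lower, against 17.5% and 16.8% over all tested genes. The median log2 difference was 1.23, and Tpm1, at -0.16 (SE 0.17), did not pass. Some of the tested genes, such as Actc1 and Lmod1, were near 0 in gate-zero cells and reached a testable level through the gate-positive class, so the count is no support for a change of the list. Actc1, which encodes cardiac alpha-actin, stood at 125, 160 and 133 CPM against 0.997, 1.18 and 1.82 CPM, a log2 difference of 6.57 (SE 0.30). Lmod1, which encodes a leiomodin that nucleates actin filaments, stood at 89.4, 74.2 and 108 CPM against 2.99, 7.06 and 4.54 CPM, a log2 difference of 4.45 (SE 0.28). Cald1, the gene of the actin-binding caldesmon, was higher by 3.15 (SE 0.23), and the calponin gene Cnn3 by 1.12 (SE 0.09).

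The defining genes of smooth muscle were at or near 0 in the same cells. Acta2, Tagln, Cnn1, Myh11, Des, Cspg4 and Notch3 had 0 UMIs among 1522639 gate-positive UMIs, which makes 7 of the 9 smooth muscle and pericyte markers. The sum of all 9 was 3.19, 1.65 and 0 CPM in gate-positive cells and 2.99, 5.88 and 3.18 CPM in gate-zero cells.

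Protein phosphatase 1 and its regulators, the family to which 2 of the gate genes belong, showed no common direction. Of 21 tested genes 5 were higher and 5 lower, with a median log2 difference of -0.00, and the shares of 23.8% each lay close to those over all genes. Ppp1r14c, a paralogue of Ppp1r14a, moved against it, at 6.39, 0 and 3.32 CPM against 81.7, 20.0 and 73.6 CPM, a log2 difference of -4.22 (SE 0.43). Ppp1r14b, another paralogue, was higher by 0.52 (SE 0.06), and the inhibitor gene Ppp1r2 by 1.06 (SE 0.09).

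Of the extracellular matrix list 4 of 22 genes were tested, with 3 higher, 1 lower and a median of 0.79. The shares over all tested genes were 17.5% and 16.8%, and with 4 tested genes the count is not read as a result. Mfap2, the gene of another microfibril protein, stood at 141, 148 and 131 CPM against 51.8, 50.6 and 49.1 CPM, a log2 difference of 1.54 (SE 0.16). Sparc (1.03, SE 0.30), Mfap3 (0.56, SE 0.22) and Vcan (-0.76, SE 0.18) were called here, and each lost its call with DESeq2. Left out in turn, library 2 ended the call of Vcan (edgeR adjusted p = 0.0863), libraries 1 and 3 that of Sparc (0.14 and 0.0539), and each of the 3 that of Mfap3 (0.151, 0.157 and 0.0928).

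**Figure D3:**
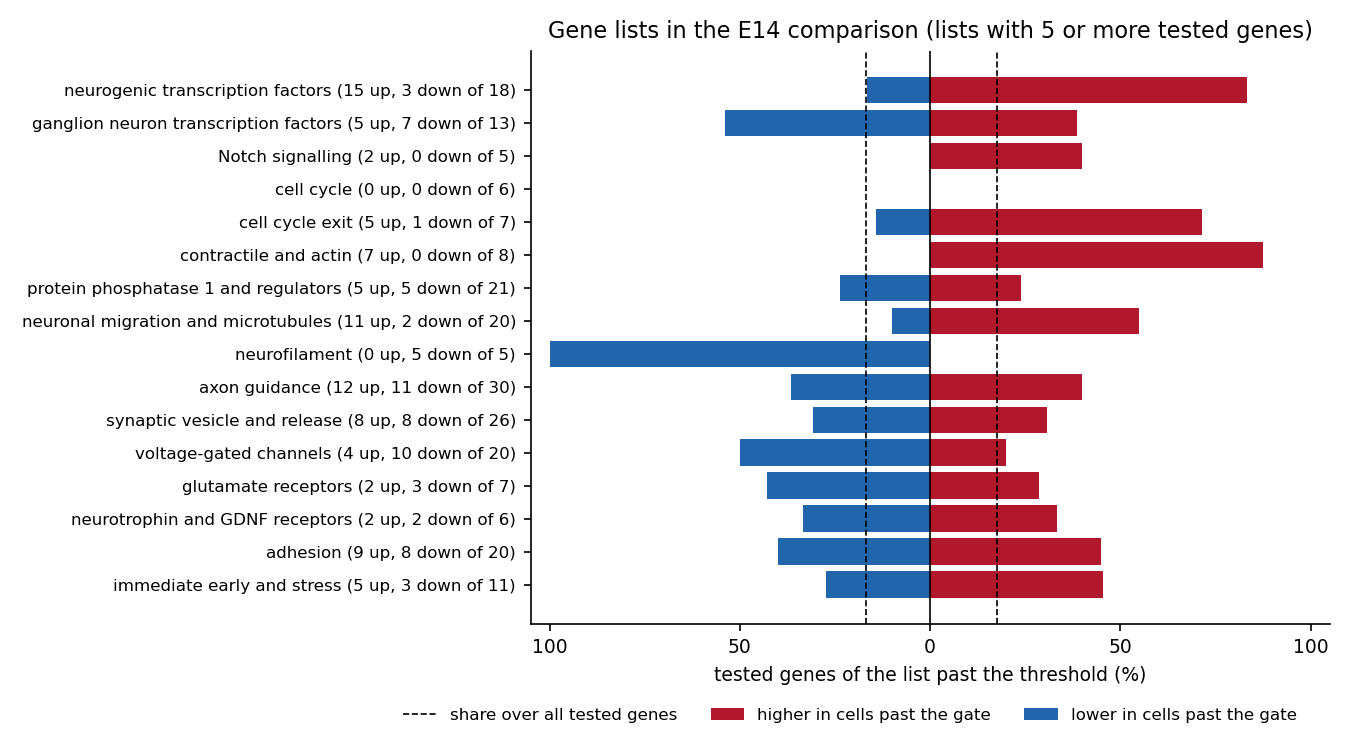
Percentage of the tested genes of each list that passed the threshold as higher (right, red) or lower (left, blue) in gate-positive E14 cells, with counts beside each name; dashed lines give the shares over all 8273 tested genes, 17.5% and 16.8%. Neurogenic factors, cell cycle exit and contractile genes extend mainly to the right and neurofilaments to the left.

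The largest differences were in genes detected mainly in 1 class. Among genes that met the naming rule and were higher, Nrp2, a semaphorin receptor of axons, stood at 109, 181 and 141 CPM against 1.04 ± 0.53 CPM (SD, n = 3), a log2 difference of 7.03 (SE 0.31). Ccdc88b, known from lymphocytes, was higher by 6.87 (SE 0.31) and Rd3, known from photoreceptors, by 6.69 (SE 0.30). Insc, a polarity gene of asymmetric cell division, had 117 UMIs against 3, a ratio of CPM of 130 (95% counting interval 43.2 to 637). Prdm8, which encodes a histone methyltransferase-related repressor, had 79 UMIs against 2 (ratio 131, 35.1 to 1102), and Ndrg1 had 86 against 1 (ratio 286, 49.9 to 11411). Cryba1, a lens crystallin gene, had 31 UMIs against 1 (ratio 103, 17.2 to 4196). The potassium channel gene Kcnn1 was higher by 5.34 (SE 0.49). Xntrpc, with 57 UMIs against 1, overlaps Trpc2 and Xndc1, so its reads cannot be placed with certainty.

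Among genes that were lower, Pnoc, which encodes the neuropeptide nociceptin precursor, had 0 UMIs in gate-positive cells and 28.9, 57.6 and 30.0 CPM in gate-zero cells, at least 17.4-fold lower against a floor of 3 UMIs over the class. Ablim3, the gene of an actin-binding LIM protein, had 0 UMIs against 34.9, 21.2 and 27.7 CPM, at least 14.95-fold lower. Clec18a stood at 3.19, 1.65 and 8.29 CPM against 109, 113 and 124 CPM, a log2 difference of -4.54 (SE 0.32). Lrrtm3, a synaptic adhesion gene, stood at 3.19, 3.30 and 3.32 CPM against 84.7, 82.3 and 65.9 CPM, a log2 difference of -4.41 (SE 0.38). The matrix gene Hmcn1 was lower by -4.67 (SE 0.34). The rest had 1 to 3 UMIs in gate-positive cells, and for them the ratio is of gate-zero over gate-positive CPM. The ratio was 59.6 for Palm3 (95% counting interval 10.6 to 2366), 44.7 for the calcium channel subunit gene Cacna2d3 (12.3 to 371) and 45.2 for Lgi1 (7.98 to 1796). It was 35.9 for the deiodinase gene Dio3 (12.2 to 175), 24.8 for Grxcr1 (6.77 to 207), 25.1 for Evc2 (6.85 to 209) and 22.3 for the adhesion gene Chl1 (7.53 to 109).

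**Figure D4:**
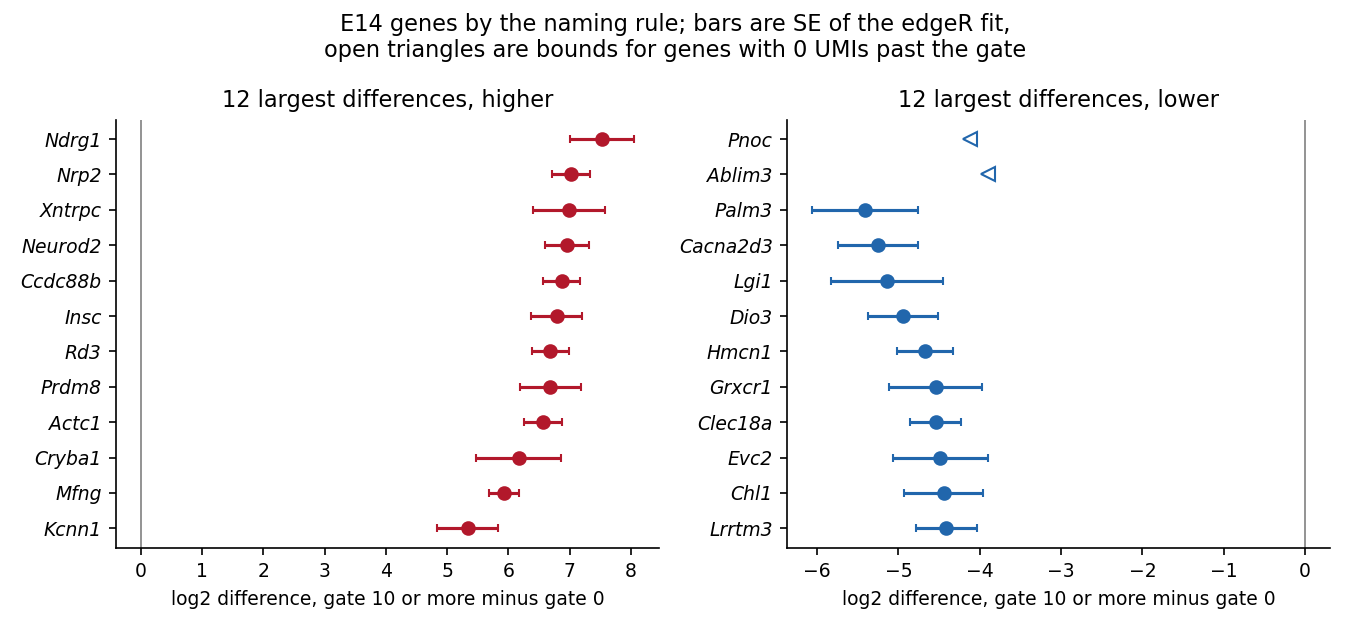
Log2 difference between gate-positive and gate-zero E14 cells (horizontal axis) for the 12 largest in each direction by the naming rule; points are edgeR estimates over 3 libraries, bars their SE, and open triangles bounds for Pnoc and Ablim3, which had 0 UMIs in gate-positive cells. Estimates with wide bars, such as Cryba1, rest on 1 to 3 UMIs in the lower class.

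Neurofilament genes, which build the caliber of mature axons, were lower, and genes of microtubules and growth cones mostly higher. All 5 neurofilament genes were lower, against 16.8% of all tested genes, with a median log2 difference of -1.26. Nefm stood at 2207, 1957 and 2745 CPM against 5540, 5923 and 5890 CPM, a log2 difference of -1.26 (SE 0.06). Nefl stood at 1632, 1324 and 1944 CPM against 3709, 3751 and 4211 CPM, a log2 difference of -1.18 (SE 0.06). Prph, the peripheral neuron filament peripherin, was lower by -2.67 (SE 0.26), Nefh by -1.99 (SE 0.37) and Ina by -0.37 (SE 0.06), and Ina lost its call with cells of at least 5000 UMIs alone (-0.19, edgeR adjusted p = 0.223).

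Of 20 tested genes of migration and microtubules 11 were higher (55.0%) and 2 lower (10.0%), against 17.5% and 16.8% over all tested genes. The median log2 difference was 0.31. Tubb3, the neuronal beta-tubulin gene, stood at 5212, 5234 and 4865 CPM against 1982, 1884 and 1960 CPM, a log2 difference of 1.48 (SE 0.06). Gap43, a growth cone gene, stood at 2523, 2774 and 2553 CPM against 831, 1378 and 845 CPM, a log2 difference of 1.48 (SE 0.06). Tuba1a was higher by 0.94 (SE 0.05) and Tubb2b by 0.93 (SE 0.05). Dcx, the migration gene doublecortin, differed by -0.08 (SE 0.10) and did not pass, and Mapt, the gene of axonal tau, was lower by -0.43 (SE 0.07).

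Axon guidance genes moved in both directions, with 12 of 30 tested genes higher and 11 lower, against 17.5% and 16.8% over all tested genes. The median log2 difference was 0.09. Some members, such as Nrp2 with a mean of 1.04 CPM in gate-zero cells, reached a testable level through the gate-positive class. The count is therefore no support for a change of the list. The semaphorin receptor pair moved in opposite directions: beside the higher Nrp2, Nrp1 stood at 3.19, 6.59 and 4.98 CPM against 39.4, 41.2 and 46.8 CPM, a log2 difference of -2.94 (SE 0.40). Sema3c was higher by 3.36 (SE 0.28) and Sema3e lower by -3.41 (SE 0.29). The Slit receptor gene Robo2 stood at 67.1, 62.6 and 68.0 CPM against 4.98, 8.23 and 3.64 CPM, a log2 difference of 3.77 (SE 0.31). Epha5 was higher by 1.32 (SE 0.07) and its relative Epha4 lower by -1.07 (SE 0.16), and the netrin receptor gene Unc5d was lower by -3.62 (SE 0.40).

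Adhesion genes also split, with 9 of 20 tested higher and 8 lower, against 17.5% and 16.8% over all tested genes. Their median log2 difference was 0.07. Cntn5, a contactin of axons, stood at 47.9, 18.1 and 16.6 CPM against 401, 286 and 457 CPM, a log2 difference of -3.89 (SE 0.17). Its relative Cntn2 was higher by 2.20 (SE 0.17), Pcdh17 by 3.03 (SE 0.15), and Cdh4 was lower by -2.88 (SE 0.20).

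Of the neurotrophin and GDNF receptor genes 6 were tested, 2 were higher and 2 lower, with a median of 0.11. Over all tested genes 17.5% were higher and 16.8% lower, and counts this small are not read as a result. The receptors of the cochlear neurotrophins did not pass: Ntrk2 differed by 0.23 (SE 0.12) and Ntrk3 by -0.01 (SE 0.10). The co-receptor gene Ngfr was lower by -1.60 (SE 0.21), at 25.5, 34.6 and 29.9 CPM against 117, 89.4 and 96.3 CPM. Sort1 (0.88) and Gfra1 (-0.63) were called here and lost their calls with DESeq2. Without library 3 neither passed (edgeR adjusted p = 0.0837 and 0.18), nor did Gfra1 without library 1 (0.0657).

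Of 20 tested voltage-gated channel genes (34 listed) 10 were lower and 4 higher, with a median of -0.50. Over all tested genes 16.8% were lower and 17.5% higher, so the share of higher channel genes, 4 of 20, lay near that background. Kcna1, a low-threshold potassium channel gene of auditory neurons, stood at 22.4, 14.8 and 19.9 CPM against 71.8, 88.2 and 87.3 CPM, a log2 difference of -2.09 (SE 0.25). Kcnq3 was lower by -2.91 (SE 0.46) and Kcnh2 by -2.40 (SE 0.46), and Kcnip4, the gene of a channel-interacting protein, was higher by 2.72 (SE 0.38).

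Of 7 tested glutamate receptor genes 3 were lower and 2 higher, with a median of -0.34. Over all tested genes 16.8% were lower and 17.5% higher, and counts this small are not read as a result. The lower genes encode AMPA receptor subunits, which carry fast transmission at hair cell synapses: Gria3 (-3.20, SE 0.47), Gria4 (-1.32, SE 0.27) and Gria2 (-1.04, SE 0.30). Both higher genes encode NMDA receptor subunits: Grin3a (2.70, SE 0.22) and Grin2d (1.03, SE 0.29). Gria3 and Gria4 missed the threshold with cells of at least 5000 UMIs alone (edgeR adjusted p = 0.0638 and 0.127), and Grin2d with DESeq2 (adjusted p = 0.222) and without library 3 (edgeR adjusted p = 0.0886).

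Genes of synaptic vesicles and release were divided evenly, with 8 of 26 tested higher and 8 lower (median -0.07). These shares were 30.8% each, against 17.5% and 16.8% over all tested genes. Syn2, a synapsin gene, stood at 431, 480 and 471 CPM against 76.8, 94.1 and 93.6 CPM, a log2 difference of 2.47 (SE 0.11). The vesicle glycoprotein gene Sv2a stood at 9.58, 28.0 and 36.5 CPM against 112, 119 and 104.5 CPM, a log2 difference of -1.94 (SE 0.21). Syp, the synaptophysin gene, was higher by 0.97 (SE 0.13).

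Immediate early and stress genes, which can respond to dissociation, had 5 of 11 tested genes higher (45.5%) and 3 lower (27.3%, median 0.08). The shares over all tested genes were 17.5% and 16.8%. Jun stood at 661, 687 and 826 CPM against 319, 388 and 470 CPM, a log2 difference of 0.97 (SE 0.08). Fos stood at 51.1, 31.3 and 44.8 CPM against 203, 83.5 and 234 CPM, a log2 difference of -1.95 (SE 0.17). The part of dissociation in these values was not tested.

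The marker lists were used to check the cell type. Pan-neuronal markers were present in both classes, with 3 of 7 higher (Tubb3, Elavl3 and Stmn2) and 0 lower, against 17.5% and 16.8% over all tested genes. Their summed level was 12237 to 13126 CPM in gate-positive cells and 7601 to 8012 CPM in gate-zero cells. Snap25, Map2, Elavl4 and Rbfox3 did not pass. Geniculate neurons could be checked by Phox2a alone, which was at 0 CPM in both classes. Glial markers summed to 26.5 to 102 CPM in gate-positive and 35.4 to 101 CPM in gate-zero cells, mostly Fabp7, with Gjc3 at 0 in gate-positive cells. Epithelial markers summed to 29.9 to 73.5 CPM against 23.2 to 77.3 CPM, so the classes overlapped. The abundant members did not pass: Oc90 differed by 0.62 (SE 0.29, edgeR adjusted p = 0.0855) and Epcam by 0.43 (SE 0.39, edgeR adjusted p = 0.43). Oc90 passed as higher in 1 alternative, the gate without Ppp1r17 (edgeR adjusted p = 0.0483). Cdh1 and Otoa had 0 UMIs in gate-positive cells and 2 and 4 in gate-zero cells. Endothelial, macrophage and melanocyte markers summed to at most 12.8, 6.64 and 0 CPM in gate-positive cells.

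Mesenchyme markers summed to 66.4 to 99.0 CPM in gate-positive cells and 62.3 to 68.2 CPM in gate-zero cells. Twist1, a mesenchymal bHLH gene, was higher by 3.40 (SE 0.36), and Pou3f4, the defining factor of otic mesenchyme, lower by -1.67 (SE 0.33), a call that was lost with cells of at least 5000 UMIs alone (-1.42, edgeR adjusted p = 0.116). The collagen gene Col1a2 had 7 UMIs in gate-positive and 10 in gate-zero cells, Dcn had 12 and 18, and Col1a1 had 0 and 3, of 1522639 and 5057027 UMIs. Of the hair cell list, Atoh1 had 0 UMIs in both classes, Pou4f3 had 1 and 2, Myo7a 1 and 0, Gfi1 0 and 1, and Otof 0 and 7. Ccer2 was higher by 5.18 (SE 0.27) and Pvalb lower. Haemoglobin RNA, which enters droplets from blood, summed to 1252, 488 and 340 CPM against 854, 1794 and 842 CPM, so its direction differed between libraries. The pairs Hba-a1 and Hba-a2 and Hbb-bs and Hbb-bt are near-identical copies between which counts are uncertain. The called members Hbb-y, Hba-a1 and Hbb-bt lost their calls without library 2 (edgeR adjusted p = 0.0605, 0.326 and 0.779).

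Pvalb, which encodes the calcium-binding protein parvalbumin of ganglion neurons and hair cells, separated the classes most sharply among the abundant genes that were lower. It stood at 179, 129 and 58.1 CPM against 2155, 2296 and 2356 CPM, a log2 difference of -4.26 (SE 0.09). In thinned cells it was detected in 10.9%, 3.97% and 6.30% of gate-positive cells and in 98.2%, 93.7% and 96.3% of gate-zero cells (unthinned 9.76%, 8.15% and 7.41%, against 98.3%, 96.6% and 96.4%). The intermediate class lay between them at 1450, 867 and 1088 CPM.

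Summed levels changed step by step along the gate value. With E14 cells divided into bins of the gate value, mean Neurod1 was 59.5 CPM at 0, 247 CPM from above 0 to 5, 499 CPM from 5 to 10, 907 CPM from 10 to 20, 1411 CPM from 20 to 40 and 1846 CPM at 40 or more. It increased from each bin to the next in each of the 3 libraries. Mean Nefl was 3890, 4020 and 3513 CPM in the first 3 bins, then 2286, 1445 and 728 CPM. Mean Pvalb was 2269, 1352 and 518 CPM, then 279, 13.6 and 21.5 CPM. Mean Actc1 was 1.33, 4.76 and 13.2 CPM, then 60.8, 126 and 318 CPM. The threshold of 10 therefore lies within a gradual change of the summed levels of these genes. Such sums cannot tell a gradual change within cells from a changing mixture of cells with and without a transcript. Cells of more than 10000 UMIs numbered 12, 25 and 19 in the intermediate class by library. Gate-positive cells of that depth numbered 1, 3 and 0, and gate-zero cells 23, 5 and 19. The part of doublets was not tested. The top bin of library 1 held 17 cells, and the gate value itself orders the bins, so they are a description.

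**Figure D5:**
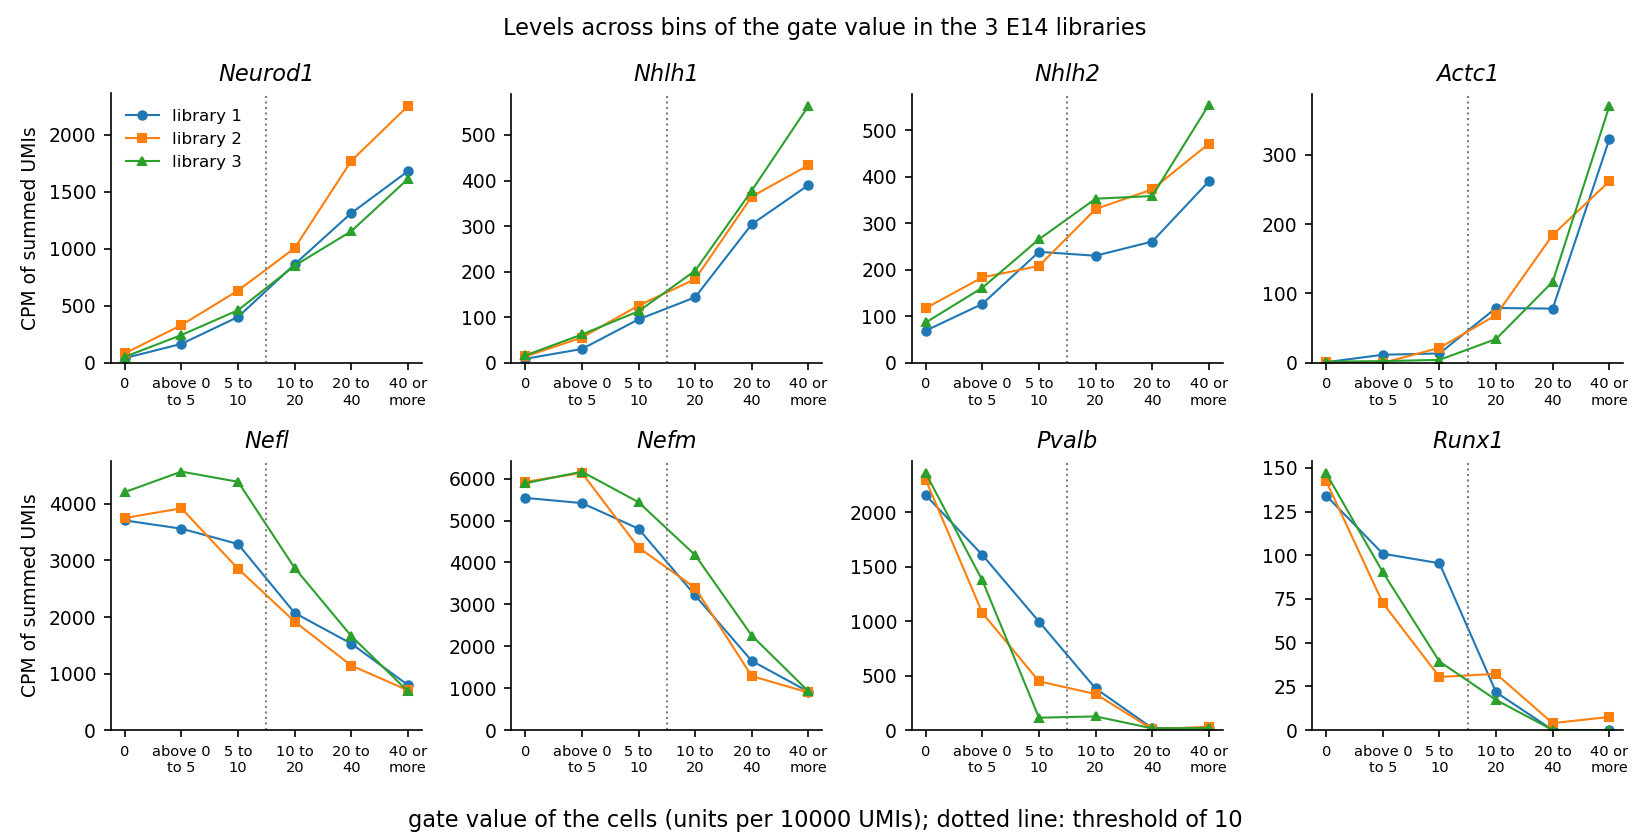
CPM of summed UMIs (vertical axis, linear from 0) of 8 genes in bins of the gate value (horizontal axis), with 1 line for each of the 3 E14 libraries and the threshold of 10 dotted. Neurod1, Nhlh1, Nhlh2 and Actc1 are highest at gate values of 40 or more, whereas Nefl, Nefm, Pvalb and Runx1 are at or near their lowest there.

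The genes most like the gate were found by the Pearson correlation, within each library across E14 cells, of the log-normalised value with the log of 1 plus the gate value, averaged over 3 libraries, among 9099 genes with a UMI in at least 5% of cells. Neurod1 led with 0.80 (0.78, 0.85 and 0.77 by library). High values were also found for Tmsb4x, the gene of the actin-sequestering thymosin beta-4, with 0.77, Tubb3 with 0.68, Isl1 with 0.64, Nhlh1 with 0.62, Basp1 with 0.62 and Tubb2b with 0.60. In summed cells Tmsb4x, chosen here by its correlation, was higher by 1.80 (SE 0.05) on the log2 scale. Among the strongest negative values, named after they were seen, were those of Pvalb (-0.82), Sncg (-0.69) and Nefm (-0.67). Cells of a library share its preparation and differ in depth, which is lower in gate-positive cells, so these correlations are descriptions.

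At E16, in libraries that the rule did not use, 5 gate-positive cells were too few for a test. In their place, E16 cells with any UMI of a gate gene (47, 69 and 55 cells in replicates 1 to 3, apex and base summed) were compared with those without (516, 941 and 850), a choice made after seeing the data. Of 11018 tested genes 69 were higher (0.626%) and 9 lower (0.0817%) by edgeR, 0.708% in all. Neurod1 stood at 52.5, 132 and 118 CPM against 15.2, 26.0 and 27.5 CPM, a log2 difference of 2.14 (SE 0.19, edgeR adjusted p = 2.2e-08). Nhlh1 stood at 5.53, 56.9 and 19.6 CPM against 1.63, 8.23 and 6.04 CPM, a log2 difference of 2.34 (SE 0.39, edgeR adjusted p = 0.0013). The gate-carrying cells of replicate 1 lay below some comparison sums for Nhlh1, whereas the Neurod1 sums did not overlap.

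Neurod2 was also higher there by 3.65 (SE 0.63), Nhlh2 by 1.15 (SE 0.20) and Zeb2 by 1.03 (SE 0.23). Pvalb was lower by -0.31 (SE 0.06), Ppp1r14c by -0.61 (SE 0.10) and Cntn5 by -0.53 (SE 0.10). Nefm was at 0.27 (SE 0.06), the opposite sign from E14, but at -0.45 (edgeR adjusted p = 0.642) with a gate of at least 5, and it lost its call with cells thinned to 3000 UMIs (0.113). Without replicate 2 the calls of Nhlh1 (1.70, edgeR adjusted p = 0.595), Neurod2 (0.0549), Nhlh2 (0.206), Zeb2 (0.22), Cntn5 (0.114) and Nefm (0.459) were lost. Without replicate 3 those of Zeb2 (edgeR adjusted p = 0.586), Pvalb (0.206) and Nefm (0.0688) were lost. DESeq2 ended the calls of Zeb2 (adjusted p = 0.612), Pvalb (0.266) and Nefm (0.406). Of the 1449 genes higher at E14, 1376 were tested at E16, where 56 were higher and 0 lower. Of the 1386 genes lower at E14, 1380 were tested, where 8 were higher and 8 lower. Over all 11018 genes tested at E16, 69 were higher (0.626%) and 9 lower (0.0817%).

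At E16 the gate-carrying cells came mainly from the apical libraries in replicates 2 and 3, but not in replicate 1. In replicate 1 the basal gate-carrying cells held 225657 UMIs and the apical ones 136242. The apical libraries gave 23, 59 and 35 of the gate-carrying cells and the basal ones 24, 10 and 20. Cells without a gate UMI numbered 305, 485 and 461 in the apical and 211, 456 and 389 in the basal libraries. Region is therefore partly mixed into the summed comparison. With the apical libraries alone 124 genes were higher and 32 lower, and Neurod1 differed by 2.03 (edgeR adjusted p = 1.7e-22). Pvalb was at -0.21 in the apical libraries and did not pass (edgeR adjusted p = 0.0502). With the basal libraries alone 0 genes passed in either direction and Neurod1 was too low to be tested. Without the replicate as a block 4 genes were higher and 0 lower, and Nhlh1 (edgeR adjusted p = 0.552), Neurod2 (0.0841), Nhlh2 (0.155), Zeb2 (1.00), Pvalb (1.00), Ppp1r14c (1.00), Cntn5 (1.00) and Nefm (1.00) lost their calls. Without replicate 1 it was 136 higher and 50 lower, without replicate 2 it was 17 and 6, and without replicate 3 it was 41 and 7. Gate-carrying cells were deeper in replicates 1 and 2 (medians of 8348 against 6133.5 UMIs and 5471 against 4075) and near equal in replicate 3 (6541 against 6605), and with cells thinned to 3000 UMIs 46 genes were higher and 11 lower.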

How the data were processed

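UMI counts per gene and cell were deposited without normalization, and a table of natural log values was deposited beside them, in which the authors gave each count, scaled to 10000 UMIs of its cell, after adding 1. Cell Ranger 3.0.1, Seurat 3.2 and the mm10 build are named, per the submitters' processing notes; filters on cells and doublets are not given in the sources used here, and no doublet caller was run. The deposited count table ends after 17999 of 26655 genes, so the counts of 8656 genes (28.2% of 34122909 UMIs) were computed back from the log table, and 0 of these values differed from a whole number by more than 0.001. The suffix of each cell name was taken as its library, since these suffixes equal the sample numbers that the descriptions give; no label spells this out. All cells were kept, and 6 barcodes were shared between libraries, 0 of them among the E14 libraries.

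UMIs were summed per library and class and compared with edgeR 4.0.16 (TMM, filterByExpr, quasi-likelihood, Benjamini-Hochberg over all tested genes, threshold 0.05), with gate genes kept in library sizes but not tested. The library was a block because both sums come from the same pool of embryos: deviations from the class means correlated by 0.217, 0.211 and 0.282 within a library. SE is the log2 difference over the square root of F. Libraries are the replicates. With the library as a block, p-values rest on how the class difference varies between libraries. At E14 that spread was pooled over all tested genes and was not each gene's own. The code was tested on simulated data. DESeq2 1.42.0, limma 3.58.1 (voom), depth filters, thinning to 3000 UMIs, other gates and leaving out each library were alternatives, of which limma-voom, the robust fit and those restricted to apical, basal or thinned E16 cells were chosen after seeing the data. The planned E16 test with the gate of 10 was not made, since 2 replicates had 2 such cells and 1 had 1, under the minimum of 3.

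Named genes are the 12 largest differences in each direction with at least 20 CPM in the higher class and no overlap of classes, up to 4 genes per list by adjusted p, and the 8 most like the gate; a few genes that met these rules are not reported here. Other list members were named after their values were seen, as were the E16 genes. The cells, gene lists and tests were chosen with earlier results of these data known. Of the symbols, 25529 were found in GENCODE M21. RefSeq promoter windows were found for 4 of 6 genes looked for (not for Mfap4 and Ppp1r17). Python 3.11.15 and R 4.3.3 were used.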

Additional observations from a re-analysis of the deposited data

How the results depend on the processing

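Of 94 named E14 genes past the threshold, 77 kept their call in every alternative, of 19, that tested them, and 1 changed direction: Hbb-y was at 0.43 with cells of at least 5000 UMIs alone, and the cause was not tested. DESeq2 gave 678 higher and 589 lower genes at E14, cells of at least 5000 UMIs alone 454 and 368 (fewer cells), and leaving out 1 library 995 to 1274 higher and 912 to 1247 lower. Without the replicate block 1199 genes were higher and 1108 lower. The robust fit gave 1451 and 1389, and limma-voom 1525 and 1200. The mean share of gate-positive cells was 24.4% ± 10.2 (SD, n = 3), and 8.91% among cells of at least 5000 UMIs.

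At E16 the comparison of cells with and without a gate UMI gave 4 higher and 0 lower genes without the replicate block, 29 and 4 with DESeq2, 50 lower genes without a filter on low counts, 118 lower with a gate of at least 5 (3, 11 and 3 cells), 124 and 32 in the apical libraries, 0 and 0 in the basal ones, and 17 to 136 higher and 6 to 50 lower when 1 replicate was left out. Of the E16 genes named, Nefm was at -0.45 with a gate of at least 5, and Gap43, at 0.32 over all E16 libraries, was at -0.094 in the basal libraries alone. The causes were not tested. With 1 to 3 UMIs in a class, a ratio is known only to within its counting interval.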

Other observations

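Several genes outside the lists, named after their values were seen, came from those with the strongest correlations with the gate value. That ranking used these same E14 cells, so their E14 differences repeat the choice and are a description. Anxa2, the gene of the membrane-binding annexin A2, stood at 294, 325 and 290 CPM in gate-positive E14 cells against 13.0, 31.7 and 13.6 CPM in gate-zero cells. Ezr, the gene of ezrin, which links actin to the membrane, stood at 476, 511 and 501 CPM against 68.3, 78.8 and 65.0 CPM, a log2 difference of 2.91 (SE 0.11). Rgs4, a regulator of G-protein signalling, was higher by 2.98 (SE 0.11). Cnr1, the cannabinoid receptor gene, stood at 63.9, 52.7 and 44.8 CPM against 485, 526 and 504 CPM, a log2 difference of -3.20 (SE 0.13). None of these classes overlapped, which held for 16.7% of all tested genes as higher and 24.8% as lower.

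In E16 cells with any gate UMI, against those with none, Anxa2 stood at 41.4, 101 and 86.9 CPM against 10.9, 17.8 and 12.1 CPM (edgeR adjusted p = 4.5e-08), and Rgs4 was higher by 1.57 (SE 0.21, edgeR adjusted p = 5.4e-05). Ezr, at 0.24 (SE 0.15, edgeR adjusted p = 0.754), and Cnr1, at 0.04 (SE 0.09, edgeR adjusted p = 0.966), did not pass there. Whether the differences at E14 and E16 themselves differ was not tested. Vim, the intermediate filament gene of immature cells, was higher at both ages, by 1.12 (SE 0.06) at E14 and by 1.24 (SE 0.09) at E16, where the 3 replicates stood at 895, 1478 and 903 CPM against 491, 499 and 385 CPM. In the basal E16 libraries alone Vim was at 0.20 and did not pass (edgeR adjusted p = 0.999).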
